A study of Mus musculus with 6 samples.

Results

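The genes described here encode the initiation and elongation factors of cytosolic protein synthesis, the kinases and binding proteins that act on them, and enzymes that modify the elongation factors. They were chosen by name: every row of the mouse matrix whose gene symbol begins with Eif or Eef and a digit, without pseudogenes and without *Eif2s3x* and *Eif2s3y*. The rule took 66 of the 22032 genes in the matrix, used no measured value, and left the gamma subunit of eIF2 out. Of the 66, 65 are annotated as protein coding. The other, *Eif2c5*, is annotated as a long noncoding RNA on the X chromosome. It is no translation factor, since Eif2c is an older name of the Argonaute genes.

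RNA-seq was performed on 6 samples of cartilage cells from mouse, 3 embryonic and 3 adult. The embryonic cells came from embryos at E16.5, and the adult cells came from male B6 animals at 2 months of age. Adult cells were sorted as CD31-CD45-Ter119-ALP-BMPR1B+, that is, without an endothelial, a leukocyte and an erythroid surface marker and alkaline phosphatase and with a BMP receptor found on chondrocytes. The embryonic cells were sorted as LIN-ALP-BMPR1B+, where LIN- means negative for lineage markers. The sources name no engineered allele and no treatment. The labels place all samples in the knee and give the embryonic stage in weeks, whereas the methods give it in days. The strain and sex of the embryos and the number of animals in a sample are not given in the sources used here, so p-values measure the spread between these samples only. Each value is an estimated transcript level in TPM, which is per length and scaled so that all transcripts of a sample add up to the same total, so less RNA per cell cannot be told apart from a smaller share of it.

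Protein synthesis in the cytosol begins when the small ribosomal subunit, carrying initiator tRNA brought by eIF2, is loaded onto a capped mRNA and scans to a start codon. The cap is bound by eIF4E, which together with the scaffold eIF4G and the RNA helicase eIF4A makes up eIF4F, while the many-subunit eIF3 bridges the mRNA and the ribosome. Cells slow initiation through 4E-BPs, which compete with eIF4G for eIF4E until mTORC1 phosphorylates them, and through kinases that phosphorylate eIF2 and so block its exchange factor eIF2B. During elongation eEF1A delivers aminoacyl-tRNA, the eEF1B complex recharges eEF1A, and eEF2 moves the ribosome along the mRNA. In growing cartilage chondrocytes divide and secrete large amounts of collagen and aggrecan, while most adult articular chondrocytes do not divide.

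As background for the marker counts, 23.9% of all 13125 genes tested were higher and 21.4% lower in adult cells (limma, adjusted p under 0.05). All 10 chondrocyte markers were in the matrix. Of these 7 were lower in adult cells and 2 were higher (*Comp* and *Sox9*), and the TPM of all 10 added up to 27754 to 29619.5 in the embryonic and 10175 to 13308 in the adult samples. The 10 proliferation genes were all lower in adult cells, with sums of 1056 to 1126 and 275 to 326 TPM. Of 10 leukocyte markers 6 could be tested and 4 were higher in adult cells, with sums of 6.10 to 14.7 TPM for embryonic cells and 206, 20.4 and 126 TPM for adult cells, whereas *Cd3e* was at 0 in all samples. By limma none of 4 tested of 10 skeletal muscle markers was called, and 1 at an unadjusted p under 0.05 (sums 8.44 to 28.0 and 4.44 to 19.0 TPM, *Myh4* at 0 in all samples), nor was any of 4 tested of 8 erythroid markers, with none at an unadjusted p under 0.05 (sums 7.77 to 257 and 12.4 to 47.5 TPM). Of 8 endothelial markers 1 of 4 tested was lower (sums 12.8 to 39.0 and 7.29 to 19.4 TPM), and of 8 osteoblast markers 4 were higher and 2 lower (sums 4928 to 6014 and 568 to 1121 TPM). In embryonic samples nearly all of the osteoblast sum was *Col1a1* (4862 to 5971 TPM, and 170 to 637 TPM in adult samples). *Col1a1* and *Dmp1* were the 2 lower, whereas *Bglap*, *Bglap2*, *Alpl* and *Ibsp* were higher (*Ibsp* 0.148 to 29.6 TPM in embryonic and 235 to 316 TPM in adult samples). The part of these other cells and of proliferation in the results on translation factors was not tested.

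More translation factor genes were lower than higher in adult chondrocytes. With limma on log2(TPM + 1) and a Benjamini-Hochberg adjusted p under 0.05, 21 of the 64 members that reached a mean of 1 TPM were lower in adult cells (32.8%), 5 were higher (7.81%) and 38 passed in neither direction. Over all 13125 genes tested, 45.3% were called, 21.4% lower and 23.9% higher. The median difference over the tested members was -0.30 on the log2 scale (range -1.94 to 4.42), beside 0.16 over all genes tested, and 41 members had a negative and 23 a positive difference. In 26 of the 64 members the 3 adult values all lay below the 3 embryonic values, and in 6 of the 64 they all lay above. Over the 13125 genes tested, 3397 (25.9%) lay below and 4023 (30.7%) above in this way. *Eif4e1b* and *Eif2c5* stayed below the filter. Dividing each sample by its median-of-ratios size factor moved the median of all genes tested to 0.03, and 28 members were then lower and 3 higher.

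As a share of the transcriptome, the 66 genes made up 2.35%, 2.41% and 2.24% of TPM in embryonic samples, compared with 1.64%, 1.48% and 1.55% in adult ones. The stages did not overlap. The elongation factors took the most, with 11504 to 12677 TPM in embryonic and 5698 to 7221 TPM in adult samples. The other 57 genes together held 10918 to 11513 and 8942 to 9132 TPM. Within a stage most members varied little, with a median SD of 0.138 on the log2 scale among embryonic and 0.250 among adult samples, beside 0.265 and 0.350 over all genes tested. The latter include genes down to a mean of 1 TPM, and the spread was not compared at matched levels. The adult SD was the larger in 47 of 64 members (73.4%) and in 62.1% of all genes tested.

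**Figure D1:**
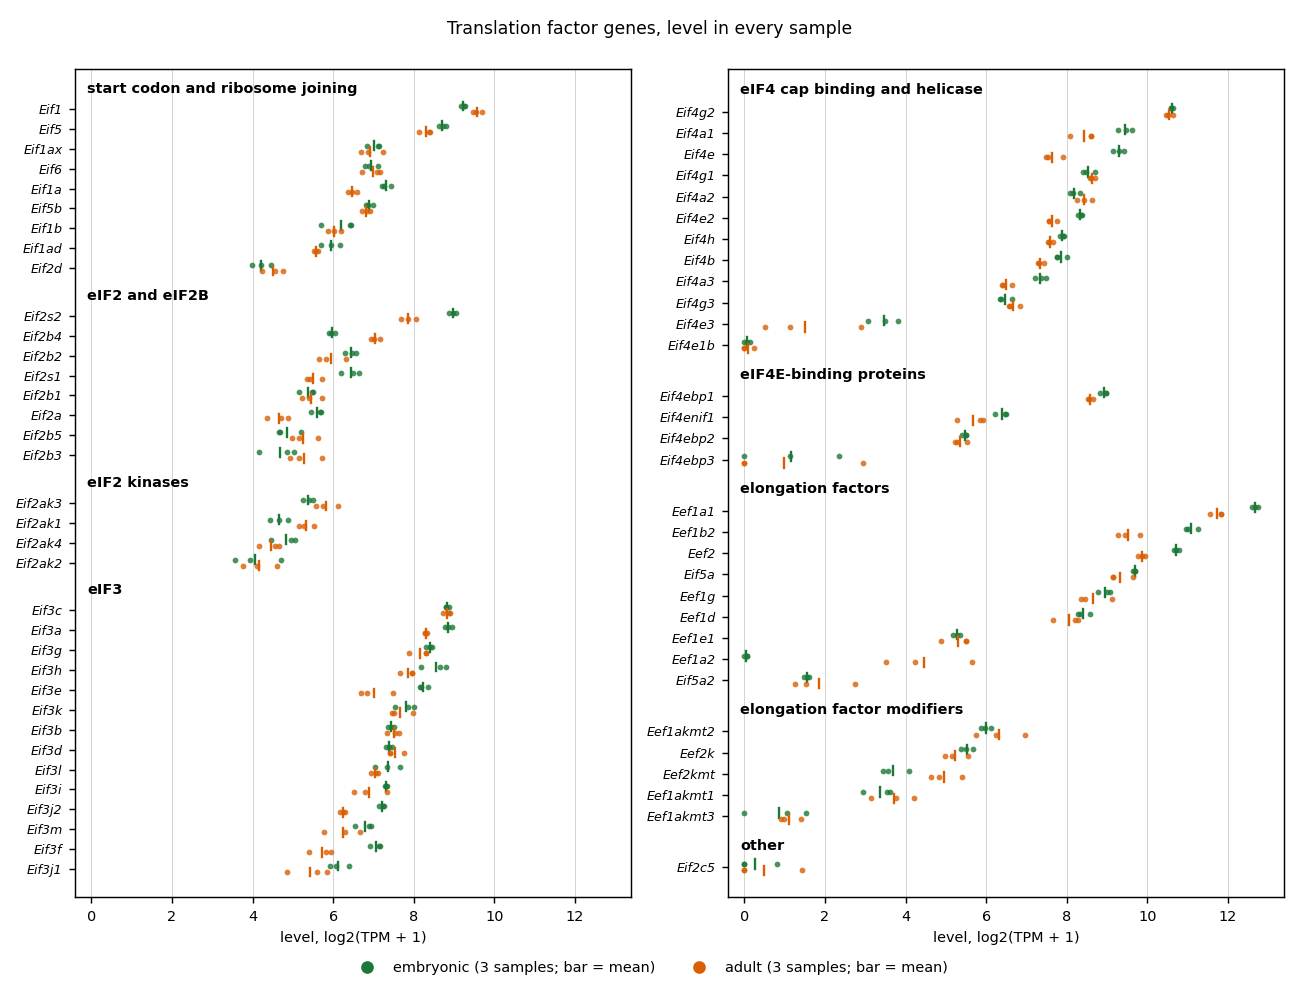
Level of each of the 66 translation factor genes in every sample, on a log2(TPM + 1) axis, by role. Points are samples and vertical bars the mean of 3. *Eef1a1* was the most abundant member at both stages, *Eef1a2* stood near 0 in each embryonic and above it in each adult sample, and *Eif4e*, *Eef1b2* and *Eif3f* were separated between stages.

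Genes of cap binding and mRNA unwinding were called to the lower side only. Of the 11 genes tested in the eIF4 group 6 were lower in adult cells (54.5%) and none was higher by limma (none at an unadjusted p under 0.05 either). Over all genes tested 21.4% were lower and 23.9% higher. The median difference of the group was -0.50. *Eif4e*, the cap-binding subunit of eIF4F, measured 688, 569 and 625 TPM in embryonic samples, compared with 185, 177 and 238 TPM in adult samples. Every adult sample lay far below every embryonic one, and the means were 627 ± 59.6 and 199.9 ± 33.3 TPM (SD, n = 3; log2 fold change -1.65, SE 0.15, adjusted p = 5.35e-05 by limma). Its gene lies on chromosome 3, 138526179 to 138559696 (GRCm38, plus strand). *Eif4e2* and *Eif4e3*, relatives of eIF4E, fell as well. *Eif4e2* (4EHP), which binds caps but supports repression rather than assembly of eIF4F, stood at 332, 328 and 308 TPM in embryonic and 189, 189 and 214 TPM in adult cells (log2 fold change -0.71, SE 0.12, adjusted p = 0.00139 by limma). *Eif4e3*, a rarer family member, dropped from 12.9, 10.3 and 7.37 TPM to 6.50, 0.418 and 1.20 TPM (log2 fold change -1.94, SE 0.62, adjusted p = 0.0314 by limma). Its adult values ranged widely, adult sample 1 lay close to the lowest embryonic sample, and the call was lost under 7 of 15 other settings, among them leaving out sample embryonic 1, embryonic 2, embryonic 3, adult 2 or adult 3 (adjusted p 0.0605 to 0.108). *Eif4e1b*, which is best known from oocytes, was at or below 0.186 TPM in every sample and was not tested.

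*Eif4a1*, the main eIF4A of most dividing cells, had 702, 789 and 614 TPM in embryonic and 385, 390.0 and 272 TPM in adult samples, without overlap (log2 fold change -1.02, SE 0.17, adjusted p = 0.00152 by limma). *Eif4a3*, which is a core protein of the exon junction complex rather than a part of eIF4F, had 163, 178 and 146 TPM in embryonic and 98.4, 85.1 and 82.9 TPM in adult samples and fell too (log2 fold change -0.86, SE 0.14, adjusted p = 0.00136, limma). *Eif4a2*, the close paralog of *Eif4a1*, had 282, 270.2 and 321 TPM in embryonic and 303, 341 and 391 TPM in adult samples. These ranges overlapped, and the difference of 0.24 (95% interval -0.07 to 0.55) did not pass the limma test (adjusted p = 0.182), although it did after quantile normalization (adjusted p = 0.0463). The makeup of eIF4A transcripts differed between the stages. *Eif4a2* took 24.6, 21.8 and 29.7% of the summed TPM of the eIF4A genes in embryonic samples and 38.5, 41.8 and 52.5% in adult samples, a mean of 25.4 ± 3.97% against 44.2 ± 7.31% (SD, n = 3). *Eif4a1* took 61.2, 63.8 and 56.8% and 49.0, 47.8 and 36.4%. The share of *Eif4a3* was 14.0 ± 0.434% and 11.4 ± 1.06%, and for all 3 genes the stages did not overlap. *Eif4a1*, *Eif4a2* and *Eif4a3* share sequence with other genes, as given below.

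None of the 3 scaffold genes passed the test. *Eif4g2* (DAP5), which lacks the eIF4E-binding region of its relatives, was the most abundant gene of the eIF4 group at 1584, 1544 and 1537 TPM in embryonic and 1418, 1594 and 1459 TPM in adult samples. The ranges overlapped, with a difference of -0.06 (95% interval -0.32 to 0.19, adjusted p = 0.67 by limma). *Eif4g1*, the main scaffold of eIF4F, had 415, 335 and 355 TPM in embryonic and 378, 412 and 389 TPM in adult samples, and *Eif4g3* had 99.3, 82.2 and 80.1 TPM in embryonic and 94.7, 113 and 94.6 TPM in adult samples. The differences were 0.10 for *Eif4g1* (adjusted p = 0.541) and 0.21 for *Eif4g3* (adjusted p = 0.296, limma). *Eif4g2* made up 75.5, 78.7 and 77.9% of the summed eIF4G TPM in embryonic and 75.0, 75.2 and 75.1% in adult samples. That share was lower in every adult sample, by less than 1 percentage point between the closest pair, and the shares of *Eif4g1* overlapped between the stages (18.3 ± 1.39% and 19.8 ± 0.331%). The helicase cofactor *Eif4b* was lower in adult cells (log2 fold change -0.50, SE 0.13, adjusted p = 0.0117, limma), a call lost under 3 of 15 other settings, among them leaving out sample embryonic 1 (adjusted p = 0.0524). Its relative *Eif4h* did not pass (-0.30, adjusted p = 0.0593).

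The 4 genes of eIF4E-binding proteins are few to set against all genes tested, of which 21.4% were lower and 23.9% higher. Of these 4 genes 2 were lower and none was higher by limma, none at an unadjusted p under 0.05 either. Their median difference was -0.27. *Eif4ebp1*, by far the most abundant of them, measured 456, 498 and 501 TPM in embryonic and 366, 377 and 398 TPM in adult cells. The stages were apart, and the difference was small (log2 fold change -0.35, SE 0.11, adjusted p = 0.0296 by limma). The call was lost under 9 of 15 other settings, among them leaving out sample embryonic 1, embryonic 2, embryonic 3 or adult 2 (adjusted p 0.0508 to 0.102), where the settings count a stricter threshold of 0.01 as 1. *Eif4ebp2* had 41.4, 44.1 and 43.9 TPM in embryonic and 45.1, 37.5 and 36.8 TPM in adult samples, which overlapped (adjusted p = 0.595, limma). *Eif4ebp3* was listed at 0 in embryonic sample 1 and adult samples 1 and 3, and at 4.13, 1.19 and 6.69 TPM in embryonic samples 2 and 3 and adult sample 2. Set over *Eif4e*, the summed 4E-BP transcripts came to 0.722, 0.960 and 0.874 in embryonic samples, compared with 2.23, 2.38 and 1.83 in adult ones. Thus each embryonic sample held less 4E-BP than eIF4E transcript and each adult sample held more, with means of 0.852 ± 0.120 and 2.14 ± 0.286 (SD, n = 3). The values are transcript ratios and carry no information on phosphorylation. *Eif4e* shares sequence with other genes, as given below, so whether a ratio lies under or over 1 is uncertain. *Eif4enif1* (4E-T), which carries eIF4E into the nucleus and to processing bodies, had 73.4, 88.3 and 87.6 TPM in embryonic and 56.1, 59.5 and 37.7 TPM in adult samples and was lower (log2 fold change -0.71, SE 0.20, adjusted p = 0.0198, limma), a call lost under 5 of 15 other settings, among them leaving out sample embryonic 2 or embryonic 3 (adjusted p 0.0712 to 0.0716).

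**Figure D2:**
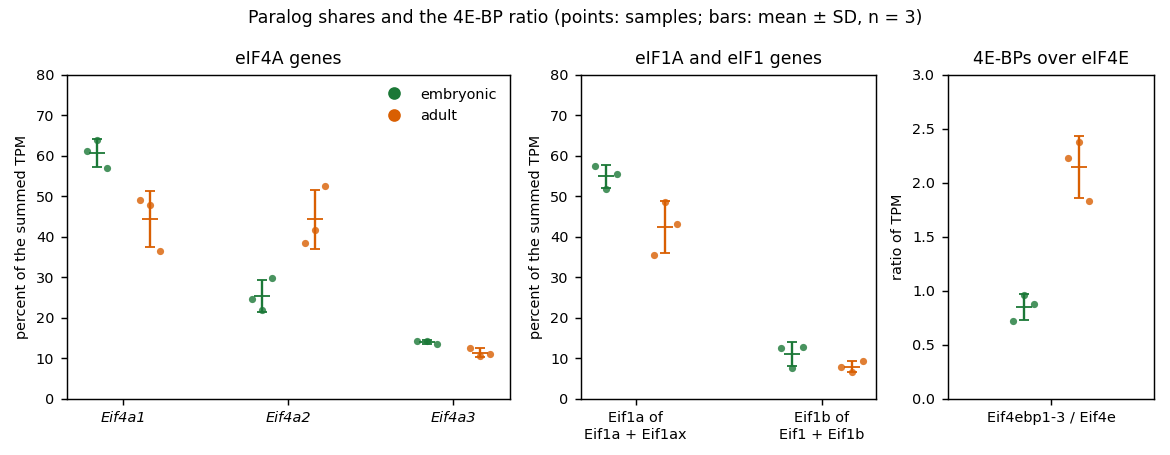
Shares of paralogs in the summed TPM of their family (left and middle) and the ratio of summed 4E-BP to *Eif4e* TPM (right), per sample. Points are samples, bars the mean ± SD (n = 3). *Eif4a2* went from a mean of 25.4% to 44.2% of the eIF4A transcripts, and the 4E-BP ratio from 0.852 to 2.14, with no overlap between stages.

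Promoters were read for the members that RefSeq windows cover. Of the 66 members 50 had a window in GRCm38.p6 that spans 250 bases before to 50 bases after an annotated start. The letters CACGTG, the palindromic E-box that MYC and other basic helix-loop-helix factors can bind, were searched, and both strands read the same. They occurred in the windows of 12 of 50 members (24.0%), of 8.09% of all 27025 genes with a window and of 11.7% of the 10292 genes with a window that were tested. Of the 15 matched members lower in adult cells 5 held them (*Eef2*, *Eif3a*, *Eif3f*, *Eif4a1* and *Eif4e*), of the 5 higher members none, and of the 29 tested without a call 7. No test was made of these shares. The stretches of 60 bases around the motif are shown for the 4 lower members in which it lies before the start, each called in all settings run. They are written 5′ to 3′ on the strand of the gene, with the E-box in capitals. They lie at chr3:138527177-138527236 (+ strand) for *Eif4e*, upstream of the second of its annotated starts, chr10:81176561-81176620 (+ strand) for *Eef2*, chr7:108934320-108934379 (+ strand) for *Eif3f* and chr11:69672580-69672639 (- strand) for *Eif4a1*.

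Eif4e: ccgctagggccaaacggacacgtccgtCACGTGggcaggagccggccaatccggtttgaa
Eef2: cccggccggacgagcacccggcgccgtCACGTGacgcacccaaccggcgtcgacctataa
Eif3f: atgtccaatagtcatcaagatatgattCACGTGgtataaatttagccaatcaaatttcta
Eif4a1: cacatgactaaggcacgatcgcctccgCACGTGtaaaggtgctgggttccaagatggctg

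The E-box began 64 bases before the start in *Eif4e*, 43 in *Eef2*, 68 in *Eif3f* and 189 in *Eif4a1*. The window of *Eif4e* held a further CACGTG, 228 bases before the start. A motif of another family, CCGGAAG, the core bound by ETS factors, was found in 17 of 50 members (34.0%), read on both strands, where 9.93% of all genes and 19.5% of the genes tested held it. It was present in 3 of 15 lower members (*Eef1b2*, *Eif4e2* and *Eif4enif1*), 2 of 5 higher members (*Eif2ak1* and *Eif2b4*) and 12 of 29 members without a call. A match of letters is a description of the window and no evidence of binding.

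Of the 14 subunit genes of eIF3 tested, 5 were lower in adult cells (35.7%) and none was higher by limma (none at an unadjusted p under 0.05 either). Over all genes tested 21.4% were lower and 23.9% higher. The median difference of the subunits was -0.49. The largest fall was that of *Eif3f*, a subunit with an MPN domain, at 139.7, 120.2 and 142 TPM in embryonic and 60.7, 55.1 and 41.5 TPM in adult samples (log2 fold change -1.35, SE 0.18, adjusted p = 0.00041 by limma). The gene lies on chromosome 7, 108934417 to 108942951 (plus strand), and none of its 50-base coding windows occurs in another gene. *Eif3e*, also known as Int6, measured 284, 328 and 289 TPM in embryonic and 179, 113 and 102 TPM in adult samples (log2 fold change -1.23, SE 0.20, adjusted p = 0.0015 by limma). For both genes the stages were far apart. *Eif3a*, the largest scaffold subunit, had 494, 437 and 459.9 TPM in embryonic and 308, 321 and 309.7 TPM in adult samples (-0.56, adjusted p = 0.00341), *Eif3h* had 401, 442 and 289 TPM in embryonic and 249, 202 and 246 TPM in adult samples (-0.68, adjusted p = 0.0128), and *Eif3j2* had 140.1, 149 and 152 TPM in embryonic and 71.1, 77.4 and 74.6 TPM in adult samples (-0.97, adjusted p = 0.000406, all limma). The call of *Eif3h* was lost under 5 of 15 other settings, among them leaving out sample embryonic 1 or embryonic 2 (adjusted p 0.0557 to 0.0559).

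The other 9 subunits did not pass. *Eif3c*, the most abundant by mean, had 472, 447 and 443 TPM in embryonic and 421, 476 and 471 TPM in adult samples (difference 0.01, 95% interval -0.25 to 0.26, adjusted p = 0.973 by limma). Its partner in the core, *Eif3b*, had 183, 172 and 164 TPM in embryonic and 198, 183 and 161 TPM in adult samples (95% interval of the difference -0.24 to 0.35). The cap-contacting subunit *Eif3d* had 158, 175 and 168 TPM in embryonic and 215, 170.1 and 169 TPM in adult samples (95% interval -0.18 to 0.45). In *Eif3b*, *Eif3c* and *Eif3d* the stages overlapped. *Eif3g* and *Eif3k* had differences of -0.22 and -0.14. *Eif3i*, *Eif3l*, *Eif3m* and *Eif3j1* had larger negative differences, -0.43, -0.32, -0.56 and -0.70, with adjusted p between 0.0581 and 0.155 (limma). Under median-of-ratios scaling 8 subunits were called, among them *Eif3i*, *Eif3m* and *Eif3j1*.

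Each subunit was also set against the median subunit of its own sample, which removes any change shared by the whole complex. *Eif3e* stood at 1.55, 1.89 and 1.74 times the median subunit in embryonic samples and at 0.949, 0.774 and 0.697 times in adult samples, so it went from above the median to below it. *Eif3f* stood at 0.770 ± 0.0799 and 0.328 ± 0.0481 times the median (mean ± SD, n = 3). *Eif3a*, *Eif3h*, *Eif3i* and *Eif3j2* were also lower in every adult than in every embryonic sample, with means of 2.66 ± 0.129 and 1.99 ± 0.306 for *Eif3a* and 0.846 ± 0.0755 and 0.473 ± 0.0834 for *Eif3j2*. The gap was narrow for *Eif3i* (lowest embryonic 0.871, highest adult 0.859) and *Eif3h* (1.74 and 1.68). *Eif3b* (0.993 ± 0.00374 and 1.14 ± 0.110) and *Eif3d* (0.961 ± 0.0833 and 1.16 ± 0.0125) were higher in every adult sample, and the other 6 overlapped. Stages without overlap were common in these data. By TPM, 25.9% of all genes tested had every adult value lower and 30.7% every adult value higher. No such share was formed for ratios. The median itself is formed by these subunits, so a fall of some sets the ratio of the rest.

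**Figure D3:**
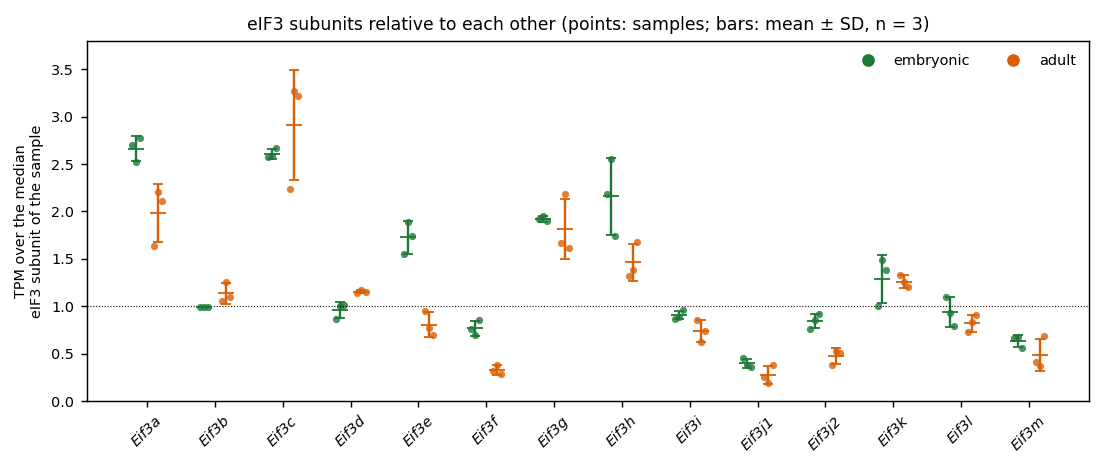
TPM of each eIF3 subunit gene divided by the median eIF3 subunit of the same sample. Points are samples, bars the mean ± SD (n = 3), and the dotted line marks the median subunit. *Eif3e* and *Eif3f* went from means of 1.73 and 0.770 in embryonic to 0.807 and 0.328 in adult samples.

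Delivery of initiator tRNA rests on eIF2 and its exchange factor. The alpha subunit gene *Eif2s1*, whose product is the target of the eIF2 kinases, and the beta subunit gene *Eif2s2* both fell. *Eif2s2* had 502, 524 and 468 TPM in embryonic and 229, 205 and 264 TPM in adult samples (log2 fold change -1.10, SE 0.13, adjusted p = 0.000244 by limma), and *Eif2s1* had 72.2, 98.1 and 88.6 TPM in embryonic and 41.7, 39.6 and 52.2 TPM in adult samples (-0.94, adjusted p = 0.00347). *Eif2a*, which despite its name encodes a separate factor that can bring initiator tRNA to the ribosome, was lower (-0.95, adjusted p = 0.00581, limma). Of the 5 subunits of eIF2B, which recharges eIF2, the delta subunit gene *Eif2b4* was the one called, and it went up, from 59.1, 65.2 and 60.8 TPM to 122, 142 and 127 TPM (log2 fold change 1.06, SE 0.14, adjusted p = 0.000376 by limma). The stages were well apart, and the call was kept in all 15 other settings. *Eif2b4* lies on chromosome 5, 31187558 to 31193430 (minus strand), and 204 bases of its exons overlap those of *Snx17* on the other strand. The alpha, gamma and epsilon genes *Eif2b1*, *Eif2b3* and *Eif2b5* had differences of 0.07, 0.59 and 0.40, and the beta gene *Eif2b2* of -0.51, none past the test (adjusted p from 0.0625 to 0.804, limma). Over the 8 genes 3 were lower (37.5%) and 1 was higher (12.5%), beside 21.4% and 23.9% of all genes tested, with a median of -0.22.

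Of the 4 eIF2 kinases 1 was called (25.0%), beside 45.3% of all genes tested. *Eif2ak1* (HRI), the heme-regulated kinase that also relays mitochondrial stress, had 28.6, 24.3 and 20.5 TPM in embryonic and 34.6, 37.8 and 45.3 TPM in adult samples and was higher (log2 fold change 0.66, SE 0.21, adjusted p = 0.033 by limma). The stages did not overlap, but the call was lost under 9 of 15 other settings, among them leaving out sample embryonic 2, embryonic 3, adult 2 or adult 3 (adjusted p 0.0646 to 0.107). Its exons share 487 bases with *Aimp2* on the other strand. *Eif2ak3* (PERK), the kinase of endoplasmic reticulum stress and the most abundant of the 4, had 41.0, 37.4 and 44.3 TPM in embryonic and 46.9, 68.8 and 53.0 TPM in adult samples (0.44, adjusted p = 0.0939). *Eif2ak2* (PKR), which responds to double-stranded RNA, and *Eif2ak4* (GCN2), which senses uncharged tRNA, had differences of 0.09 (adjusted p = 0.857) and -0.36 (adjusted p = 0.284, limma), and their stages overlapped.

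Start codon recognition and subunit joining came next. Among 9 genes 2 were lower (22.2%) and 1 was higher (11.1%), with a median of -0.10. The share lower was near the 21.4% of all genes tested, of which 23.9% were higher. *Eif1*, which keeps the scanning ribosome from settling on a wrong codon, was the most abundant at 602, 616 and 573 TPM in embryonic and 745, 833 and 708 TPM in adult samples. It was higher in every adult sample by a small amount (log2 fold change 0.35, SE 0.11, adjusted p = 0.035 by limma), a call lost under 9 of 15 other settings, among them leaving out sample embryonic 1, embryonic 2, embryonic 3 or adult 2 (adjusted p 0.0723 to 0.125). The relative *Eif1b* had 86.7, 50.9 and 84.6 TPM in embryonic and 63.8, 57.8 and 72.2 TPM in adult samples (-0.16, adjusted p = 0.58) and made up 11.0 ± 2.93% and 7.88 ± 1.39% of the pair, with overlap. *Eif1a* and *Eif1ax* encode nearly the same factor, eIF1A, from chromosomes 18 and X. *Eif1a* fell from 153, 148 and 172 TPM to 82.3, 95.4 and 87.0 TPM (log2 fold change -0.83, SE 0.13, adjusted p = 0.00132 by limma), whereas *Eif1ax* had 113, 137 and 139 TPM in embryonic and 149, 101 and 115 TPM in adult samples (-0.10, adjusted p = 0.655). The share of *Eif1a* in their sum was 57.4, 51.8 and 55.4% in embryonic and 35.5, 48.5 and 43.1% in adult samples, without overlap. *Eif5*, which makes eIF2 hydrolyse its GTP at the start codon, was lower (log2 fold change -0.41, SE 0.12, adjusted p = 0.025, limma), a call lost under 7 of 15 other settings, among them leaving out sample embryonic 2 or embryonic 3 (adjusted p 0.0778 to 0.0847). *Eif5b*, which joins the ribosomal subunits, and *Eif6*, which keeps them apart, had differences of -0.07 (95% interval -0.36 to 0.23) and 0.05 (95% interval -0.32 to 0.43), and *Eif1ad* and *Eif2d* did not pass either (-0.37, adjusted p = 0.114 and 0.30, adjusted p = 0.365).

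Among the 9 elongation factor genes 3 were lower (33.3%) and 1 was higher (11.1%) in adult chondrocytes, with a median of -0.35. Over all genes tested 21.4% were lower and 23.9% higher. *Eef1a1*, which carries aminoacyl-tRNA to the ribosome, ranked 3 among all genes by mean TPM in embryonic and 21 in adult cells. It measured 6572, 6829 and 6149 TPM in embryonic and 3628, 2985 and 3657 TPM in adult samples, and all adult values were below all embryonic ones (log2 fold change -0.93, SE 0.14, adjusted p = 0.000837 by limma). It was not called without the filter on low values (adjusted p = 0.484), with the same difference. *Eef2*, the translocase, had 1748, 1622 and 1672 TPM in embryonic and 982, 929 and 868 TPM in adult samples (log2 fold change -0.86, SE 0.11, adjusted p = 0.00041). *Eef1b2*, the exchange factor subunit that recharges eEF1A, had the largest fall of the group, from 1973, 2462 and 2061 TPM to 894, 613 and 701 TPM (log2 fold change -1.57, SE 0.16, adjusted p = 0.000125, limma). Its partners in the eEF1B complex did not pass the test. *Eef1g* had 511, 538 and 439.8 TPM in embryonic and 558, 351 and 324 TPM in adult samples, which overlapped (-0.31, adjusted p = 0.241, limma). *Eef1d* had 311, 378 and 321 TPM in embryonic and 294, 202 and 308 TPM in adult samples (-0.35, adjusted p = 0.139, limma). Its adult values all lay below the embryonic ones, the closest pair only slightly apart. *Eef1e1* (AIMP3), a part of the multi-synthetase complex, did not pass the test (difference 0.02, 95% interval -0.48 to 0.52). The positions of the called genes were chromosome 9, 78478449 to 78489151 for *Eef1a1* (minus strand), chromosome 10, 81176631 to 81182498 for *Eef2* (plus strand) and chromosome 1, 63176825 to 63180486 for *Eef1b2* (plus strand).

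*Eef1a2*, the eEF1A form of muscle and neurons, was the member with the greatest rise. Its level was 0.0490, 0.0501 and 0 TPM in embryonic and 10.4, 17.9 and 48.9 TPM in adult samples, with a difference of 4.42 on the log2(TPM + 1) scale (SE 0.56, adjusted p = 0.000357 by limma). That difference depends on the pseudocount, being 7.33 with a pseudocount of 0.1, and no fold is given since the embryonic level is next to 0. The adult samples differed among themselves several-fold. *Eef1a2* made up 0.287, 0.596 and 1.32% of the eEF1A transcripts in adult samples and at most 0.000746% in embryonic ones, so *Eef1a1* remained nearly all of the pool. The gene lies on chromosome 2, 181147653 to 181157014 (minus strand) and shares no 50-base window of its coding sequence with another gene. Muscle marker sums in the same adult samples were 19.0, 4.44 and 10.9 TPM. A part of other cells in the rise of *Eef1a2* was not tested.

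The factor eIF5A, which helps the ribosome past stretches such as polyproline, is made from *Eif5a* and *Eif5a2*. *Eif5a* had 833, 806 and 824 TPM in embryonic and 804, 570.1 and 568 TPM in adult samples. All adult values were below the embryonic ones, adult sample 1 only slightly, and the test was not passed (-0.36, adjusted p = 0.0813, limma). *Eif5a2* had 2.05, 1.80 and 1.96 TPM in embryonic and 5.73, 1.38 and 1.88 TPM in adult samples and made up less than 1% of the pair in every sample (0.235 ± 0.0109% and 0.426 ± 0.247%). Of the enzymes that modify elongation factors 5 were tested and 1 was called, as higher, with a median of 0.33. Calls were made for 45.3% of all genes tested, with 23.9% higher and 21.4% lower. *Eef2kmt*, a lysine methyltransferase of eEF2, rose from 10.8, 15.9 and 9.92 TPM to 41.4, 23.9 and 27.4 TPM (log2 fold change 1.26, SE 0.30, adjusted p = 0.00873 by limma). The stages were apart and the call was kept in all 15 other settings, but 472 bases of its exons overlap those of *Alg1* on the other strand. *Eef2k*, the kinase that inactivates eEF2, did not pass (-0.30, adjusted p = 0.267). *Eef1akmt2*, the most abundant of the group, had 61.3, 68.7 and 57.4 TPM in embryonic and 74.4, 52.6 and 125 TPM in adult samples (0.33, adjusted p = 0.358), and *Eef1akmt1* and *Eef1akmt3* had differences of 0.35 and 0.24 with adjusted p of 0.475 and 0.744 (limma).

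**Figure D4:**
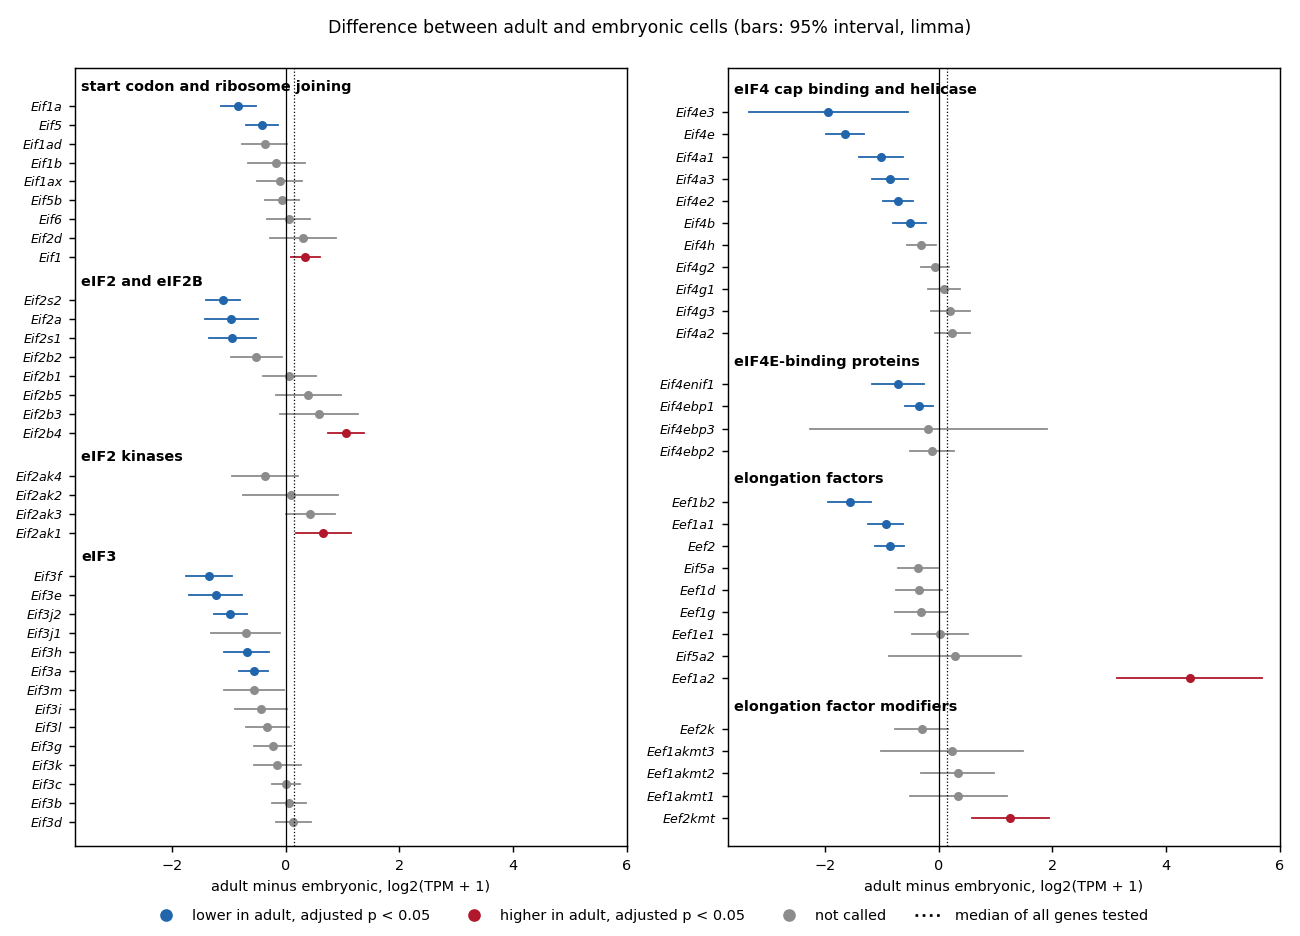
Adult minus embryonic difference in log2(TPM + 1) of the 64 members tested, by role, with the 95% interval of the limma fit. The dotted line is the median of all genes tested, 0.16. Blue and red points passed an adjusted p under 0.05, 21 lower and 5 higher, and the eIF3, eIF4 and 4E-BP groups held calls to the lower side only.

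Several translation factor genes have near-identical copies elsewhere in the genome, which bears on reads of 50 bases. Of the 66 members 15 had at least 1 other annotated gene that matched 90% or more of their coding sequence with an identity of at least 95%, 38 such pairs in all, of which 4 had a row in the matrix. Cut into windows of 50 bases, 96.3% of the coding sequence of *Eif4a1* occurred in a transcript of another gene, 73.4% of *Eif2s2*, 72.6% of *Eef1a1*, 58.3% of *Eif4e*, 46.0% of *Eif4e3*, 26.3% of *Eif4a2* and 25.0% of *Eif3e*. For *Eif3h*, *Eif2s1* and *Eif4a3*, also lower in adult cells, the shares were 32.5%, 31.8% and 28.9%. *Eif3j1* and *Eif3j2* are near-identical to each other (99.7% and 98.9% of windows shared), so how reads divide between them is uncertain, and 94.5% of the windows of *Eif1* were shared. For *Eef1b2* the share was 16.8%, for *Eef2* 9.47% and for *Eif3f* none.

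Of the 18 tested members with at least 20% of windows shared 10 were lower and 1 was higher, with a median difference of -0.78. Among the 46 tested members under 20% there were 11 lower (23.9%) and 4 higher (8.70%), with a median of -0.11, and 21.4% of all genes tested were lower. The 20% limit was chosen after the data were seen, and the difference between the subsets was not tested. The 11 included *Eef1b2*, *Eef2*, *Eif3f*, *Eif3a*, *Eif4e2* and *Eif1a*. Exons of 18 members overlap a gene on the other strand, and the library method as described does not mark strand.

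**Figure D5:**
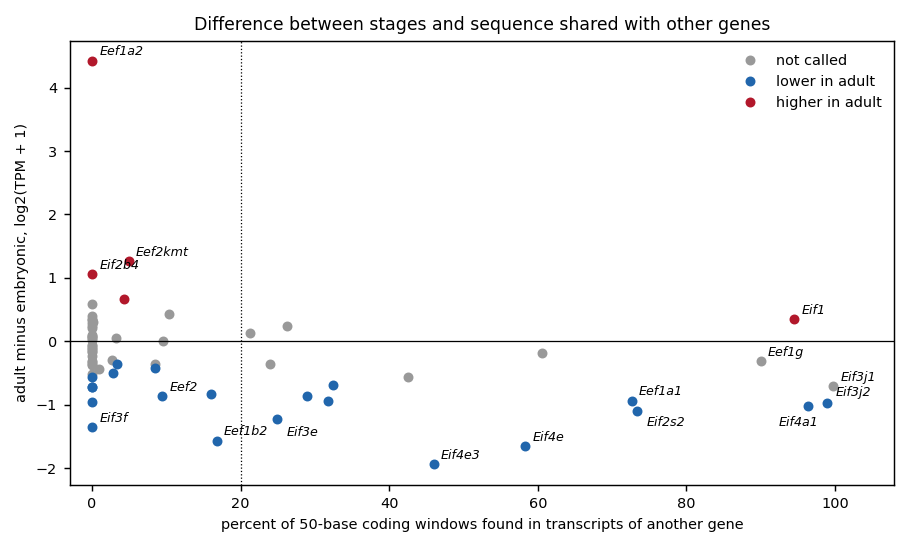
Adult minus embryonic difference in log2(TPM + 1) of each of the 64 members tested against the percent of its 50-base coding windows found in transcripts of another gene. Points are genes, coloured by call, and the dotted line marks 20%. Left of it 11 of 46 members were lower in adult cells, right of it 10 of 18.

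Genes that act with the factors were read from the same fit. In the list of mTORC1 and its signaling to eIF4E 4 of 20 genes were higher (20%) and 2 lower (10%), where 23.9% and 21.4% of all genes tested were. The kinase *Mtor* itself had 14.4, 11.7 and 12.2 TPM in embryonic and 36.7, 36.3 and 40.8 TPM in adult samples (log2 fold change 1.51, SE 0.22, adjusted p = 0.000702, limma), and *Akt1s1* (PRAS40), an inhibitory partner in mTORC1, was also higher (0.98, adjusted p = 0.000557). Lower were the mTORC1 inhibitor *Sesn2* (-1.36, adjusted p = 0.000701) and the S6 kinase gene *Rps6kb1* (-0.70, adjusted p = 0.0143). Of the 24 genes linked to ATF4 and the integrated stress response, which follows eIF2 phosphorylation, 9 were higher (37.5%) and 6 lower (25.0%), beside the same 23.9% and 21.4%. *Atf5* went from 46.8, 61.8 and 62.4 TPM to 281, 403 and 342 TPM (2.56, adjusted p = 1.39e-05) and *Nupr1* was higher too (1.97, adjusted p = 4.64e-05), whereas *Atf3* went from 627, 645 and 685 TPM to 80.5, 119.8 and 138 TPM (-2.56, adjusted p = 2.04e-05) and *Sesn2*, given above, had the next largest fall of the list (all limma). *Atf4* itself did not pass (-0.25, adjusted p = 0.0928). Both *Sesn2* and *Ddit4* stand in both lists.

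Of the poly(A)-binding, termination and recycling genes 5 of 15 were lower (33.3%) and 1 was higher (6.67%), beside 21.4% and 23.9% of all genes tested. *Pabpc4*, a cytoplasmic poly(A)-binding protein gene, and *Etf1*, the release factor eRF1, were the most lowered. *Etf1* had 643, 696 and 622 TPM in embryonic and 278, 264 and 300.1 TPM in adult samples (log2 fold change -1.22, SE 0.11, adjusted p = 6.79e-05, limma), and *Pabpc4* had 148, 139.7 and 131 TPM in embryonic and 75.8, 75.9 and 29.8 TPM in adult samples (-1.31, adjusted p = 0.0107). *Dhx29*, a helicase of scanning ribosomes, was the one higher (0.94, adjusted p = 0.0113). The cytosolic aminoacyl-tRNA synthetase list, 22 genes, had 5 higher and 2 lower, led by *Lars* (1.38, adjusted p = 0.000116) and *Wars* (1.34, adjusted p = 0.000374) upward and by *Yars* (-0.43, adjusted p = 0.023) and *Tars* (-0.39, adjusted p = 0.0264) downward (limma). Against the 23.9% higher and 21.4% lower over all genes tested, 22.7% and 9.09% of this list were called.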

How the data were processed

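RNA-seq was measured in 6 samples, 3 embryonic and 3 adult, grouped by their labels. Per the study's methods, cDNA was made from random and poly(T) primers (the labels name a Kapa mRNA-Seq kit) and sequenced as single-end reads of 50 bases. The authors mapped reads to GRCm38 with RefSeq annotation, ran RSEM, and deposited 1 value per gene and sample on a log2(TPM + 1) scale. The RSEM version is not given in the sources used here. TPM carries no read depth, so precision rests on the 3 samples of a stage, and EBSeq, the study's tool, was not used.

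The members and all lists were chosen with earlier results of these data known. Symbols and positions came from GENCODE M21, matched for 21902 of 22032 identifiers, and promoters from RefSeq (GRCm38.p6). limma 3.58.1 (lmFit, eBayes with trend) in R 4.3.3 was fitted to log2(TPM + 1) of 13125 genes, those averaging 1 TPM or more, with stage as the only term, and p-values were adjusted over all of them by Benjamini-Hochberg. Values in every sample are given for members past the threshold with a log2 change of at least 1, for the highest, most raised and most lowered member of each role, and for paralog sets. Of each pathway list the 2 largest changes in each direction past the threshold were named, and Atf4 and the other members beside them. Coding sequences were compared with BLAST+ 2.17.0 and by windows of 50 bases. Alternatives were a pseudocount of 0.1, no filter, a mean of at least 5 TPM, median-of-ratios scaling, quantile normalization, eBayes without trend, an adjusted p under 0.01, rescaling after removal of the 20 highest genes, the replicate number as a block, and leaving out each sample. The sequence-sharing limit and the subset of factors proper came after the values were seen.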

Additional observations from a re-analysis of the deposited data

How the results depend on the processing

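No called member reversed under any alternative run, and 17 of 26 were called in all. *Eef1a1*, itself among the 20 highest genes, had no value once these were removed. Translation factor genes higher in adult numbered 3 without the filter, with median-of-ratios scaling, with adjusted p under 0.01 and among the factors proper (without kinases, binding proteins and modifiers). Only members under 20% of shared coding windows gave 15 called and 11 lower. The eIF2 kinases had 0 called without the filter, with median-of-ratios scaling, with quantile normalization and with adjusted p under 0.01, and eIF3 had 8 with median-of-ratios scaling. The eIF4E-binding proteins had 1 without the filter, with quantile normalization and without the 20 highest genes, and 0 with eBayes without trend or adjusted p under 0.01. The start codon group had 1 with those last settings, and the aminoacyl-tRNA synthetases had 4. Adjusted p under 0.01 left 3718 of all genes (1855 higher, 1863 lower), 3 in the mTORC1 list and 3 in the poly(A)-binding list. The median difference of all genes was 0.0 without the filter, 0.028 with median-of-ratios scaling, 0.093 with quantile normalization and 0.25 without the 20 highest genes, and that of the members was -0.44, -0.19 and -0.20 under the last 3.

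Leaving out each sample in turn gave 16 to 25 members lower and 3 to 5 higher (3 without embryonic 2, embryonic 3 or adult 2), a median of -0.32 to -0.23, 1 to 3 called in the start codon group, 0 to 1 among eIF2 kinases, 0 to 2 among eIF4E-binding proteins and 4 to 7 among the synthetases (4 without embryonic 1). Same-numbered samples showed no shared deviation from their stage means (correlations -0.00884, -0.0169 and -0.0223). From 3 samples per stage this cannot exclude a pairing by number. With the replicate block 19 members were lower and 3 higher, with 1 called in the start codon group, 0 among eIF2 kinases and 1 among eIF4E-binding proteins. The cause of these changes was not tested, and TPM carries no depth from which a limit could be set.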
